A study of Rattus norvegicus with 32 samples.

Results

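Lcn2 encodes lipocalin 2, a small secreted protein, and its transcript was followed here across normal mammary glands of 6 groups of rats. It was taken by its symbol, as 1 of 4737 genes named on the array, and 1 of the 8799 probe sets carried that symbol. Beside it stand the genes whose signals varied most like it over the 30 single-sample arrays. High Lcn2 signals were found in the inbred strains Cop, BUF/N and WF, and in F1 animals from a cross of Cop with F344. Low signals were found in the inbred strains F344 and ACI. Each group had 5 single-sample arrays, and Cop and F344 each had 1 further array of a pool. The study's subject, by its title, is how rat strains differ in inherited risk of mammary cancer, and every sample is labelled as normal mammary gland. No treatment, age, sex or stage of the reproductive cycle was given for any group in the labels used here. Nothing in the labels ties the 5 samples of a group to different animals, and the p-values below therefore measure only the spread between these samples. The signals are microarray intensities from MAS 5.0, so a level is compared for the same probe set between samples.

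Lipocalin 2 binds bacterial iron-carrying siderophores and so withholds iron from bacteria. It is stored in the granules of neutrophils, and epithelial cells, those of the mammary gland included, make it when interleukin 1, interleukin 6 or NF-kB and C/EBP transcription factors drive its promoter. The protein forms a complex with the matrix protease Mmp9, and the receptors Slc22a17 and Lrp2 (megalin) take it up.

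The promoter is shown because NF-kB and C/EBP factors act on it and because the strains differed in the signal of the transcript it drives. The sequence comes from RefSeq on the GRCr8 assembly, at chr3:36081731-36082030 on the minus strand, and runs from 250 bases before to 50 bases after the annotated start. The capitals mark GGGAA, the half-site that NF-kB proteins recognise.
Lcn2 promoter: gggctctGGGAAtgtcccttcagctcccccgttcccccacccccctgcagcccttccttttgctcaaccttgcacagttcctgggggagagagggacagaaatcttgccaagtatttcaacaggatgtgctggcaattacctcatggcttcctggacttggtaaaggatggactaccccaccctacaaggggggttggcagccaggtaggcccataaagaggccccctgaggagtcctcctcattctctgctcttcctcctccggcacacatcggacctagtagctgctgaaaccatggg
Both strands were searched. On the printed strand GGGAA was found once, beginning 243 bases before the start, and it was found once on the other strand, which is not marked. It occurred in 62.3% of the 33469 RefSeq promoters of the same length, so the presence of this half-site alone does not set Lcn2 apart. Full NF-kB sites, which are longer, were not searched for. The C/EBP-like pattern TTGCNNAA was found once, beginning 191 bases before the start, and in 10.6% of promoters. The STAT-like pattern TTCNNNGAA, present in 8.87% of promoters, and the TATA box letters TATAAA, present in 14.2%, were not in this window. The RefSeq sequence represents a reference strain that is none of the 6 groups, so it carries no information on sequence differences between them.

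Between arrays, the signals had been scaled to a common level, with trimmed means of 250.3 to 250.4 and medians of 65.8 to 102.1. The 2 highest medians belonged to ACI 2 (102.1) and ACI 5 (101.8). The log2 signals of 2 arrays of 1 group correlated at r = 0.846 to 0.978 over probe sets, which are not independent. The mean r with the rest of the group was lowest for F1 2 (0.890), F1 3 (0.901) and ACI 5 (0.902), though F1 5 and WF 1 (0.905 each) were little higher and ACI 2 stood at 0.916. Results were also computed without F1 2, F1 3, ACI 2 and ACI 5, a choice made with earlier results known.

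The Lcn2 signal was high in every array of 4 groups and low in every array of the other 2. In Cop glands the 5 arrays read 1151, 1982, 2013, 1277 and 1657. In F1 glands they read 1252, 1982, 2271, 776 and 2190.
BUF/N glands gave 2163, 4891, 1744, 2256 and 2655. WF glands gave 1852, 2010, 4792, 2112 and 2021. The 20 arrays of these 4 groups thus lay between 776 and 4891, with the 2 highest values from single arrays of BUF/N and WF.
F344 glands read 80.9, 81.6, 64.6, 93.5 and 41.1. ACI glands read 67.1, 81.1, 36.7, 55.5 and 135.5. All 10 arrays of these 2 strains lay below all 20 of the others, and the lowest high array (F1 4) was 5.73-fold above the highest low array (ACI 5). As Lcn2 was chosen for this pattern, the levels are a description and were not tested.

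**Figure D1:**
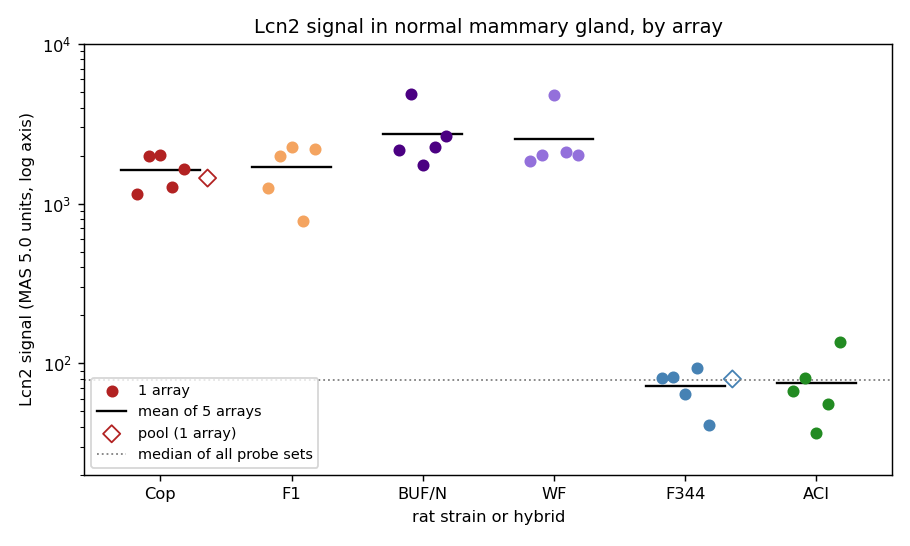
Lcn2 signal (MAS 5.0 units, log axis) on every array, by group, with filled points for single samples, open diamonds for the Cop and F344 pools, bars for the mean of 5 arrays and a dotted line for the overall median (78.4) that served as the filter on low values. Every Cop, F1, BUF/N and WF array lies at 776 or above, and no F344 or ACI array exceeds 135.5.

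Ordered by mean signal, BUF/N stood at 2742 ± 1244, WF at 2557 ± 1253, F1 at 1694 ± 652, Cop at 1616 ± 395, ACI at 75.2 ± 37.4 and F344 at 72.3 ± 20.3 (SD, n = 5 each). Neighbours in this order overlapped, except across the step between Cop and ACI. On the log2 scale, Cop exceeded F344 by 4.50 (22.6-fold) and ACI by 4.52 (23.0-fold).
The F1 hybrid exceeded F344 by 4.50 and ACI by 4.52. BUF/N exceeded F344 by 5.20 (36.8-fold) and ACI by 5.23 (37.4-fold). WF exceeded F344 by 5.09 (34.2-fold) and ACI by 5.12 (34.8-fold).
Within the high groups the differences were small beside this step. BUF/N exceeded Cop by 0.70 and WF exceeded Cop by 0.59 on the log2 scale, with overlapping arrays in both pairs. BUF/N and WF differed by 0.11, and F344 and ACI by 0.03, less than the SD of either member of each pair (0.56 in BUF/N, 0.57 in WF, 0.47 in F344 and 0.69 in ACI).
Without F1 2 and F1 3 the F1 mean was 1406 ± 720 (SD, n = 3), and without ACI 2 and ACI 5 the ACI mean was 53.1 ± 15.3 (SD, n = 3).

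On every F344 and ACI array the Lcn2 signal was above 18.3, the floor to which low signals were raised, so the differences above do not depend on that floor. No detection calls were used here, so whether the F344 and ACI signals come from Lcn2 RNA or from unspecific binding was not tested, and whether the gene is off in these strains cannot be told. In whole tissue, fewer cells that make a transcript and less RNA per cell cannot be told apart. Whether the strains differ in sequence under the probes, which can also change a signal, was not tested. The gene had no other probe set for comparison.

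The pools of the hybrid's parent strains gave the same order. The Cop pool read 1446 and the F344 pool 79.7, an 18.1-fold ratio (4.18 on the log2 scale) with no replicate. Both lay inside the range of the 5 single-sample arrays of their strain.

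The F1 hybrid averaged close to its Cop parent and above the midpoint of its parents. On a log2 scale with F344 at 0 and Cop at 1, the F1 mean stood at 0.999, and its 5 arrays at 0.773 to 1.12. On the linear scale it stood at 1.05, with arrays from 0.456 to 1.42. The mean of the parents was 844 in linear signal, and 4 of the 5 F1 arrays exceeded it.
For comparison, 34 other probe sets were called higher in Cop than in F344 by more than 2-fold (limma, Benjamini-Hochberg adjusted p under 0.05). Their median F1 position was 0.485, with 8 of them at 0.75 or more and 7 at 0.25 or less. Whether Lcn2 differs from these in its F1 position was not tested.

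Few probe sets varied as widely between groups. The lowest and highest group means of Lcn2 differed by 5.23 on the log2 scale, the 4th widest range among 5039 probe sets that passed a filter on low values, against a median of 0.74. The 3 wider ranges were those of RT1-Bb, a class II histocompatibility gene (6.50), Csn2, which encodes the milk protein beta-casein (5.52), and Hs6st1, a heparan sulfate sulfotransferase (5.39). Differences between groups held 95.4% of the sum of squares of Lcn2, the 7th highest share, against a median of 39.5%.
Complete separation of the 20 Cop, F1, BUF/N and WF arrays above the 10 F344 and ACI arrays was seen for Lcn2 and for no other probe set (1 of 5039, 0.0198%). The opposite separation was seen for none (0%). The split into 20 and 10 arrays was taken from the Lcn2 signal itself, so its separation was fixed in advance. The ranks above likewise describe a gene chosen for its pattern and were not tested.

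A set of 8 comparisons, of Cop, F1, BUF/N and WF each against F344 and against ACI, asked which other probe sets followed the same strain pattern. These comparisons share arrays, and they were chosen because of Lcn2, so what follows describes the choice. Beside Lcn2, 1 probe set was called higher in all 8 (2 of 5039 with Lcn2, 0.0397%) and 3 were called lower in all 8 (0.0595%).
The probe set that was higher is rc_AA859899_at, which has no gene name in the annotation used here. It averaged 130.6 ± 19.2 in Cop, 71.6 ± 25.1 in F1, 76.2 in BUF/N and 78.9 in WF, against 29.8 ± 7.16 in F344 and 29.96 ± 12.6 in ACI (SD, n = 5 each). Its differences of 1.22 to 2.19 on the log2 scale were all smaller than those of Lcn2, and its arrays overlapped, since ACI reached 49.7 and F1 fell as low as 44.8.
Of the 3 that were lower, 2 detect Me1, the cytosolic malic enzyme that makes NADPH for fatty acid synthesis, and the third, rc_AI009141_at, has no gene name here. The Me1 probe set M26594_at averaged 337 ± 132 in Cop, 268 ± 81.5 in F1, 257 ± 85.0 in BUF/N and 228 ± 54.7 in WF, against 1292 ± 934 in F344 and 932 ± 332 in ACI (SD, n = 5 each). The highest Cop array of Me1 (504) lay above the lowest F344 array (327.5), so the groups overlapped. The log2 differences of M26594_at were -2.18 to -1.51, and those of the other Me1 probe set, rc_AI008020_at, -1.52 to -1.14. Without Cop 2, F344 5 or ACI 5, or without the 4 arrays named above, M26594_at was no longer called lower in all 8. The count of 3 itself moved to 0 without Cop 2, to 1 without ACI 5, to 5 without F1 1 and to 6 without F1 2, F1 5 or F344 4. The unnamed rc_AI009141_at differed by -1.96 to -1.15.

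The signals most like that of Lcn2 over the 30 arrays were few. Pearson's r of log2 signals reached 0.8 in size for 2 probe sets, 1 in each direction, and 0.7 for 27, of which 9 were positive and 18 negative, against a median r of 0.02 over all probe sets. These correlations carry no p, because the genes were chosen by them and because the 30 arrays fall into a cluster of 20 and a cluster of 10. For the genes given with their group means, and for a few others picked after their values were seen, the r within each cluster is printed too.
The most positive r was that of rc_AA859899_at, 0.84 (Spearman's rho 0.64), and it was 0.81 without ACI 3 and F344 5, the arrays farthest from the median of Lcn2. Within the 20 high arrays its r was 0.08, and within the 10 low arrays 0.43. Among named genes, Mrpl52, a protein of the mitochondrial ribosome, had r = 0.76, with 0.46 within the 20 high arrays and 0.28 within the 10 low arrays. It averaged 341 in Cop, 427 in F1, 409 in BUF/N and 387 in WF, against 305 in F344 and 149 in ACI.
Slc25a11, the oxoglutarate carrier of mitochondria, had r = 0.75 and averaged 549 in Cop, 486 in F1, 712 in BUF/N and 713 in WF, against 412 in F344 and 367 in ACI. Its r was 0.72 within the 20 high arrays but -0.47 within the 10 low arrays. The kinase Stk25 followed at 0.75, the TATA-binding protein Tbp at 0.72 and the planar polarity gene Prickle2 at 0.70. The remaining 7 of the 12 most positive were Tmem218 at 0.70, the adenylate cyclase Adcy5 at 0.68, and the lysosomal lipase Lipa, the small GTPase Rab13, the eosinophil chemokine Ccl11, the thioredoxin inhibitor Txnip and the junction protein Pkp4, all at 0.67. The likeness did not always hold within the clusters. Txnip had r = -0.12 within the 20 high arrays and -0.21 within the 10 low arrays. Tbp had 0.23 and -0.38, while Prickle2 had 0.54 and 0.69.

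The 12 named genes most opposed to Lcn2 included several enzymes of fatty acid synthesis, a listing made after their values were seen and not tested as a group. Me1 had r = -0.81 (rho -0.63), with -0.79 when ACI 3 and F344 5 were left out, but -0.02 within the 20 high arrays and -0.21 within the 10 low arrays. Gpam, which starts glycerolipid synthesis, had r = -0.78, with -0.17 within the 20 high and -0.46 within the 10 low arrays. It averaged 39.1 in Cop, 32.9 in F1, 44.1 in BUF/N and 43.2 in WF, against 123.1 in F344 and 86.4 in ACI.
Acaca, acetyl-CoA carboxylase, had r = -0.77, but 0.20 within the 20 high arrays and -0.48 within the 10 low arrays. It averaged 109 in Cop, 78.2 in F1, 100.6 in BUF/N and 103 in WF, against 274 in F344 and 195 in ACI. Fasn, fatty acid synthase, had r = -0.71, but 0.38 within the 20 high arrays and -0.40 within the 10 low arrays. It averaged 1190 in Cop, 1190 in F1, 1487 in BUF/N and 1270 in WF, against 2989 in F344 and 2480 in ACI. All 3 genes were lower on average in each of the 4 groups with high Lcn2 than in either group with low Lcn2. They were chosen by a negative r over these same groups, so this describes the choice and is not a further result.
Acly, which supplies cytosolic acetyl-CoA, had r = -0.71 and the mitochondrial chaperonin Hspd1 -0.75. Akr1c3, an aldo-keto reductase, the pyruvate carrier subunit Mpc1 and Nop58, a protein of small nucleolar particles, each had r = -0.72. Mdh2 (mitochondrial malate dehydrogenase) had -0.71, and Pdhb (a pyruvate dehydrogenase subunit) and Acat2 (which makes acetoacetyl-CoA) each had -0.70. For Mdh2 the r was -0.63 within the 20 high arrays and -0.72 within the 10 low arrays.

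**Figure D2:**
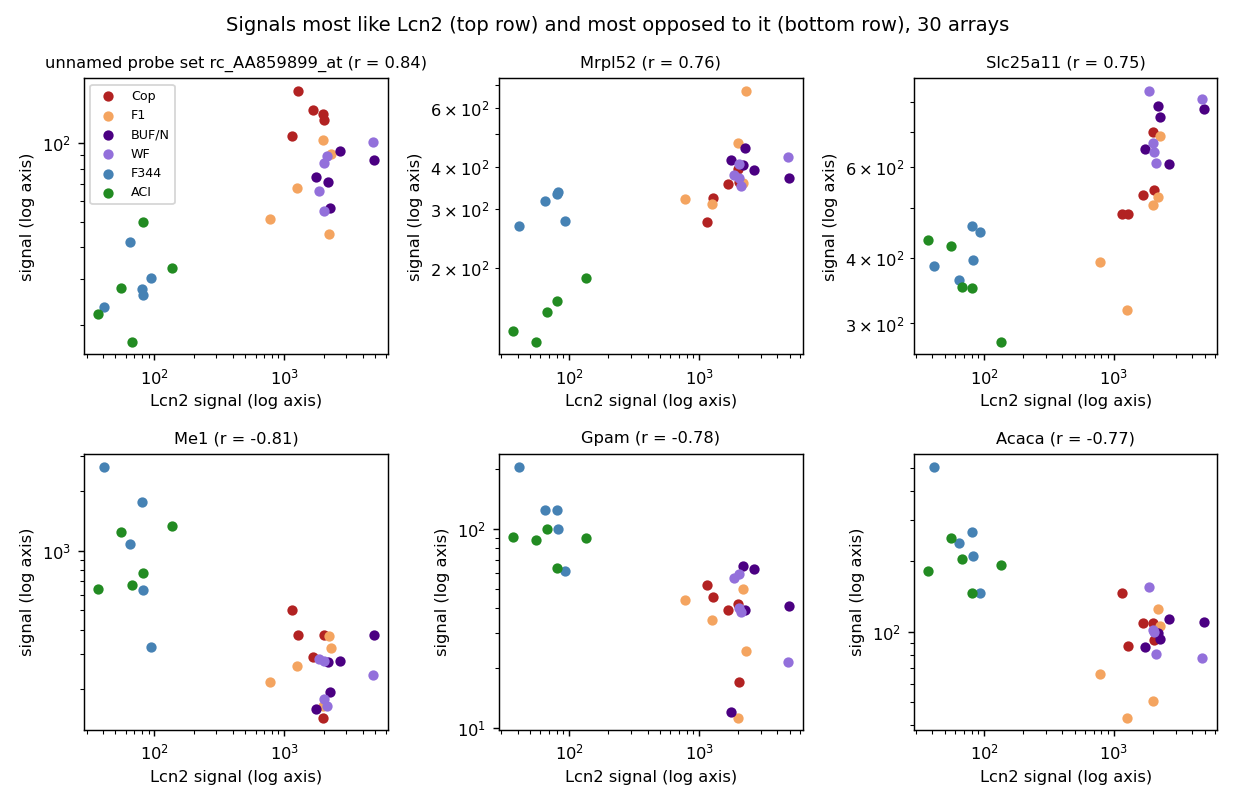
Signal of 6 probe sets (vertical, log axis) against the Lcn2 signal (horizontal, log axis) on 30 arrays, coloured by group. In each panel the arrays form a cluster of 20 at high Lcn2 (Cop, F1, BUF/N, WF) and a cluster of 10 at low Lcn2 (F344, ACI), from 0.84 for rc_AA859899_at to -0.81 for Me1.

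None of the tested genes known to act with or upstream of Lcn2, or to be induced beside it, was called higher in all 8 comparisons. Of all 5039 probe sets only 2 were, Lcn2 included (0.0397%), so a count of 0 among these genes is near that share. Lists of other lipocalins, binding partners, iron-handling genes, inducers, acute-phase genes and granulocyte markers held 161 names, of which 88 were on the array and 45 passed the filter on low values. In Cop against F344, 0 of the 45 were called higher and 3 lower (limma), where 1.69% of all probe sets were called higher and 1.77% lower, and 709 of all 5039 had an unadjusted p under 0.05. In WF against ACI, which shares no array with that comparison, 1 was higher and 3 lower, where 3.69% and 3.49% of all probe sets were. Those 2 counts depended on a few arrays, with 5 higher without F1 2, F1 3, ACI 2 and ACI 5, 3 higher with array weights, and 1 lower when any of ACI 1, ACI 2, WF 1, WF 3 or WF 5 was left out. Their median log2 change was -0.15 in Cop against F344 (0.03 over all probe sets) and 0.05 in WF against ACI (-0.03 over all).
In F1 against F344, 3 of the 45 were higher and 8 lower (16.3% and 15.4% of all probe sets), and in BUF/N against F344, 2 and 4 (13.3% and 10.5%). In WF against F344, 1 was higher and 7 lower (6.77% and 4.56%), and in Cop against ACI, 2 and 2 (3.29% and 4.31%). In F1 against ACI, 11 were higher and 9 lower (12.4% and 16.7%), and in BUF/N against ACI, 5 and 2 (6.31% and 7.34%). No gene of the 45 was called higher in more than 3 of the 8, or lower in more than 6. Of all tested probe sets other than Lcn2, 120 were higher in 4, 28 in 5, 6 in 6, 0 in 7 and 1 in 8. Lower in 7 were 5, and in 8 were 3, so few of any 45 would go beyond these bounds. These comparisons share arrays, so their counts are not independent.

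Among upstream regulators, 15 of the 28 inducer genes on the array passed the filter. Against ACI, 5 of the 15 were higher and 1 lower in F1 (12.4% and 16.7% of all probe sets). In BUF/N against ACI, 4 were higher and 0 lower (6.31% and 7.34%). Against F344 the counts were 2 and 1 in F1 (16.3% and 15.4%), and 1 and 0 in BUF/N (13.3% and 10.5%). In Cop and WF 0 were higher. Called lower were 1 in Cop against F344 (1.77%), 1 in Cop against ACI (4.31%) and 2 in WF against F344 (4.56%). The summed signal of the 28 had r = 0.35 with Lcn2, and 0.46 for deviations from the group means. Nfkb1, an NF-kB subunit, averaged 743 in Cop, 688 in F1, 692 in BUF/N and 901 in WF, against 813 in F344 and 762 in ACI, and passed in none of the 8 comparisons. Nfkbia, the inhibitor that NF-kB itself induces, averaged 405 in Cop, 359 in F1, 420 in BUF/N and 330 in WF, against 473 in F344 and 347 in ACI, and passed in none either.
Cebpb, a C/EBP factor, fell by 0.59 on the log2 scale in Cop against F344 (limma, adjusted p = 0.021). Its means were 590 in Cop and 876 in F344, opposite in direction to Lcn2, and the adjusted p reached 0.087 when Cop 1 was left out. Leaving out Cop 4, F344 2, F344 3 or F344 4 also ended that call. Stat3, which carries the interleukin 6 signal, averaged 94.2 in Cop, 50.3 in F1, 120 in BUF/N and 146 in WF, against 83.0 in F344 and 95.2 in ACI, and was called lower in F1 against ACI only.
The inducing cytokines themselves did not pass the filter. Over the 30 arrays, Il1b read 30.7 to 79.5, Il6 1.2 to 25.5 and Tnf 4.1 to 24.8. They were not tested at these signals.

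Of the receptors and partners, Lrp2 read 16.4 to 109.7 and Mmp9 4.2 to 57.3, and neither passed the filter. Slc22a17, the NF-kB subunit Rela and the ferritin gene Fth1 were not analysed here, as no probe set carried their symbols.

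Of the other lipocalins, 4 of the 11 on the array passed the filter. Ptgds, a lipocalin that makes prostaglandin D, rose by 1.04 on the log2 scale in WF against ACI (limma, adjusted p = 0.0027), with means of 106 in WF and 51.9 in ACI. In Cop against F344 its means were 52.6 and 62.9 and it did not pass. Rbp4, the retinol carrier, was lower in 6 of the 8 comparisons, those of F1, BUF/N and WF, and in neither of Cop. It averaged 3369 in Cop, 1311 in F1, 1716 in BUF/N and 1884 in WF, against 2760 in F344 and 2797 in ACI. Rbp4 fell by 1.11 in F1 against F344 (limma, adjusted p = 3.3e-05), by 0.70 in BUF/N against F344 (0.0051) and by 0.54 in WF against F344 (0.039).
In WF against ACI Rbp4 fell by 0.56 (limma, adjusted p = 0.046), a call that was lost in 18 of the 30 fits that left out 1 array, with 0.17 without ACI 5. The log2 differences of Rbp4 in Cop, 0.30 against F344 and 0.28 against ACI, did not pass. Apod, an apolipoprotein of the family, averaged 102 in Cop, 95.0 in F1, 85.8 in BUF/N and 119 in WF, against 82.8 in F344 and 115 in ACI, and passed in none of the 8 comparisons.

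Of the iron-handling genes, 12 of the 13 on the array passed the filter. Cp, the ferroxidase ceruloplasmin, fell by 1.45 in Cop against F344 (limma, adjusted p = 0.0097), with means of 258 in Cop and 714 in F344. Tfrc, the transferrin receptor, fell by 1.34 in WF against ACI (limma, adjusted p = 0.029), with means of 41.7 in WF and 112 in ACI, and its adjusted p was 0.11 without WF 1. Leaving out WF 3, WF 5, ACI 1, ACI 2 or ACI 4 ended the Tfrc call as well. Slc40a1, the iron exporter ferroportin, passed in none of the 8 comparisons, with means of 147 in Cop, 218 in F1, 214 in BUF/N and 151 in WF, against 179 in F344 and 144 in ACI.

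Acute-phase genes, which inflammation raises together with Lcn2, were represented by 15 genes past the filter among 27 on the array. Fgg, a fibrinogen chain, fell by 4.07 in Cop against F344 (limma, adjusted p = 1.7e-05), with means of 11.8 in Cop and 356 in F344. All 5 Cop arrays of Fgg lay under the floor of 18.3 to which low signals were raised before the test, so the size of this fall depends on the floor. Fgg was also below the floor on all 5 ACI arrays (mean 6.42). Ccl2, a monocyte chemokine, fell by 0.95 in WF against ACI (limma, adjusted p = 0.0018), with means of 186 in WF and 356 in ACI.
Hp, the hemoglobin-binding protein haptoglobin, averaged 115 in Cop, 84.7 in F1, 114 in BUF/N and 144 in WF, against 114 in F344 and 152 in ACI. A2m averaged 200.2 in Cop, 162 in F1, 236 in BUF/N and 203 in WF, against 147 in F344 and 225 in ACI. For both genes, the 4 groups with high Lcn2 did not lie together. The complement gene C3 (3.4 to 570) and Orm1 (4.2 to 87.5) did not pass the filter.

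**Figure D3:**
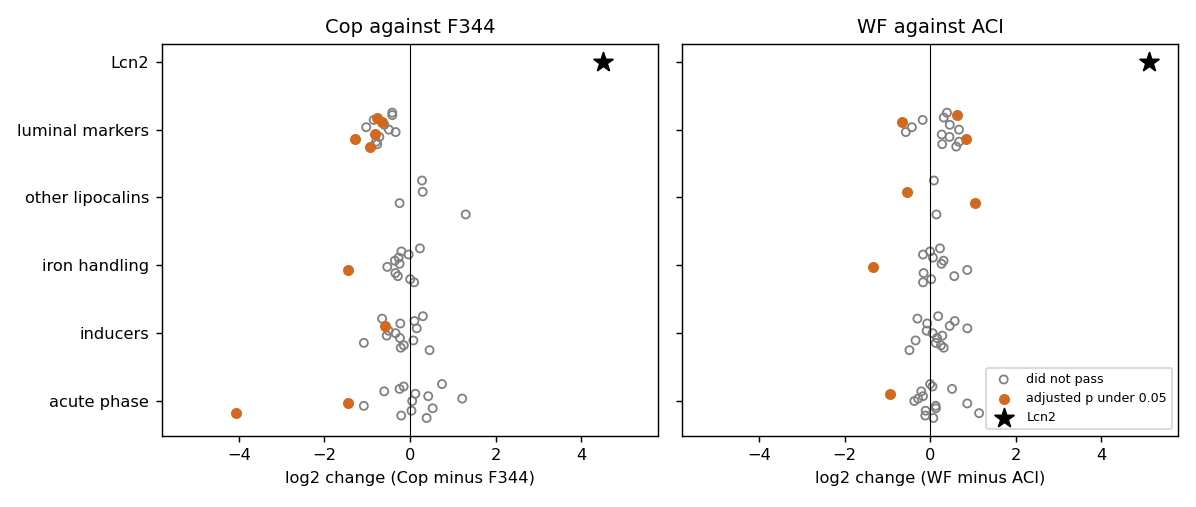
Log2 change of each tested gene of 5 lists, and of Lcn2 (star), in Cop against F344 and in WF against ACI, with filled points for an adjusted p under 0.05 (limma). Lcn2 lies at 4.50 and 5.12, and no listed gene lies beyond 2 on the positive side in either comparison.

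Neutrophils carry Lcn2, so granulocyte markers were read beside it. Of 24 markers, 9 were on the array and 0 passed the filter, and the highest single signal among them was 82.7, on the array ACI 2. S100a8 read 0.5 to 24.2 and S100a9 3.0 to 45.2 over the 30 arrays, and 7 of the 9 had a median at or below the floor of 18.3. The summed signal of the 9 ranged over 66.8 to 186.1 in Cop, 94.7 to 161.8 in F1, 104.9 to 170.2 in BUF/N and 80.2 to 204.5 in WF, against 113.7 to 176.6 in F344 and 92.3 to 249 in ACI. The ranges of all 6 groups overlapped. The highest sums were on ACI 2 (249) and ACI 5 (247.5), and without these the highest were on WF 1 (204.5) and, in ACI, on ACI 3 (152.1).
Luminal epithelial markers differed between strains, and Cop held another place in their order than in that of Lcn2. The summed signal of 16 luminal epithelial markers was 5080 to 8270 in Cop, 11395 to 13556 in F1, 12992 to 17111 in BUF/N and 11680 to 14492 in WF, against 8983 to 12449 in F344 and 8735 to 11149 in ACI. Every Cop array lay below every F344 and ACI array, while its Lcn2 signal lay above. For the other groups the mean sums were in the direction of Lcn2, with 12766 in F1, 14795 in BUF/N and 13070 in WF, against 10397 in F344 and 10118 in ACI. In Cop against F344, 5 of 15 tested luminal markers fell and 0 rose (1.77% and 1.69% of all probe sets), and the median log2 change of the 15 was -0.76. In Cop against ACI, 7 fell and 0 rose (4.31% and 3.29%). The tight-junction gene Cldn3 fell by 1.29 (limma, adjusted p = 0.0010). The calls of the other 4, Krt19, Prlr, Ocln and Cd24, were each lost in 5 to 8 of the 30 fits that left out 1 array. In contrast to Cop, 5 luminal markers were higher and 0 lower in BUF/N against F344 (13.3% and 10.5% of all probe sets) and in BUF/N against ACI (6.31% and 7.34%). In the F1 hybrid, 2 were higher and 0 lower against each of F344 (16.3% and 15.4%) and ACI (12.4% and 16.7%). In the WF strain, 1 was higher and 1 lower against F344 (6.77% and 4.56%), and 2 were higher and 1 lower against ACI (3.69% and 3.49%).
Myoepithelial markers, of which 8 were tested, were higher against F344 in F1 (6, with 16.3% of all probe sets), BUF/N (4, 13.3%) and WF (5, 6.77%) and in 0 cases in Cop (1.69%). Against ACI they were higher in WF (3, 3.69%), F1 (1, 12.4%) and BUF/N (0, 6.31%), while 3 were lower in Cop (4.31%). Their summed signal was 5256 to 8355 in Cop, 10567 to 13452 in F1, 8181 to 9768 in BUF/N and 9353 to 12416 in WF, against 6351 to 7852 in F344 and 7566 to 10385 in ACI. Its deviations from the group means had r = 0.54 with those of Lcn2 over the 30 arrays.
Adipocyte markers summed to 31127 to 40971 in Cop, 27451 to 31589 in F1, 20925 to 28199 in BUF/N and 22972 to 35519 in WF, against 31845 to 34980 in F344 and 29117 to 31397 in ACI. Of 14 tested, 5 were lower in F1 against F344 (15.4% of all probe sets), 6 in BUF/N (10.5%) and 4 in WF (4.56%). Higher against F344 were 2 in Cop (1.69%) and 1 in F1 (16.3%). Against ACI, 4 were higher in Cop (3.29%) and 1 in F1 (12.4%). Lower against ACI were 2 in F1 (16.7%) and 3 in WF (3.49%), and BUF/N against ACI called none. Skeletal muscle markers summed to 1843 to 29882 in Cop, 1310 to 4879 in F1, 2463 to 9355 in BUF/N and 2365 to 11851 in WF, against 7136 to 31706 in F344 and 4391 to 16670 in ACI. Their log2 sum had r = -0.59 with Lcn2 over the 30 arrays, and -0.32 for the deviations from the group means. Of 15 tested, 13 were lower in F1 against F344 (15.4% of all probe sets), 9 in BUF/N against F344 (10.5%), 11 in WF against F344 (4.56%), and 0 in Cop against F344 (1.77%). Against ACI, 8 were lower in F1 (16.7%), 1 in BUF/N (7.34%), 1 in WF (3.49%) and 0 in Cop (4.31%), and none was higher in any of the 8. Of 5 macrophage markers, 3 were higher in Cop against ACI (3.29% of all probe sets), and 1 in F1 against ACI (12.4%) and in BUF/N against ACI (6.31%). Against F344, 1 was lower in F1 (15.4%), 2 in BUF/N (10.5%) and 1 in WF (4.56%), and the other comparisons called none. Of 10 lymphocyte markers, 1 was lower in Cop against ACI (4.31% of all probe sets), and the other 7 comparisons called none. The part of tissue composition in the Lcn2 levels was not tested.

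Within groups, single arrays lay up to 1.02 from the group mean of Lcn2 on the log2 scale. The log2 deviations from the group mean were widest in F1 4 (-1.02), WF 3 (1.01), ACI 5 (0.99), BUF/N 2 (0.93), ACI 3 (-0.90) and F344 5 (-0.76). Correlations of such deviations leave out the differences between groups, use 30 arrays in 6 groups, and ranged over -0.71 to 0.79 among all probe sets. The highest, 0.79, was that of U75916_at, which has no gene name here.
The named genes that deviated most like Lcn2 were Ube2q2, a ubiquitin-conjugating enzyme, at 0.77, Cd59b, a complement inhibitor, at 0.76, Cd82, a tetraspanin, at 0.75, Cel, a lipase also secreted in milk, at 0.74, Myo5b, a motor of vesicle transport, at 0.73, and the small GTPase Rap1b at 0.72. Without F1 4 and WF 3, the arrays of largest deviation, these were 0.76, 0.68, 0.65, 0.66, 0.67 and 0.67. Ube2q2 had an r of -0.17 with Lcn2 over the 30 arrays as they stand, so it did not share the strain pattern.
Most opposed were Ptprm, a receptor phosphatase, at -0.71, the mast-cell tryptase Tpsb2 at -0.65, Resp18, a protein of secretory granules, at -0.65, and Rpl36al1, which resembles a ribosomal protein gene, at -0.62. Of the probe sets that were like Lcn2 across strains, rc_AA859899_at had 0.44 within groups, Mrpl52 0.55 and Prickle2 0.64. Me1, which was opposed to Lcn2 across strains, had -0.02 within groups.

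**Figure D4:**
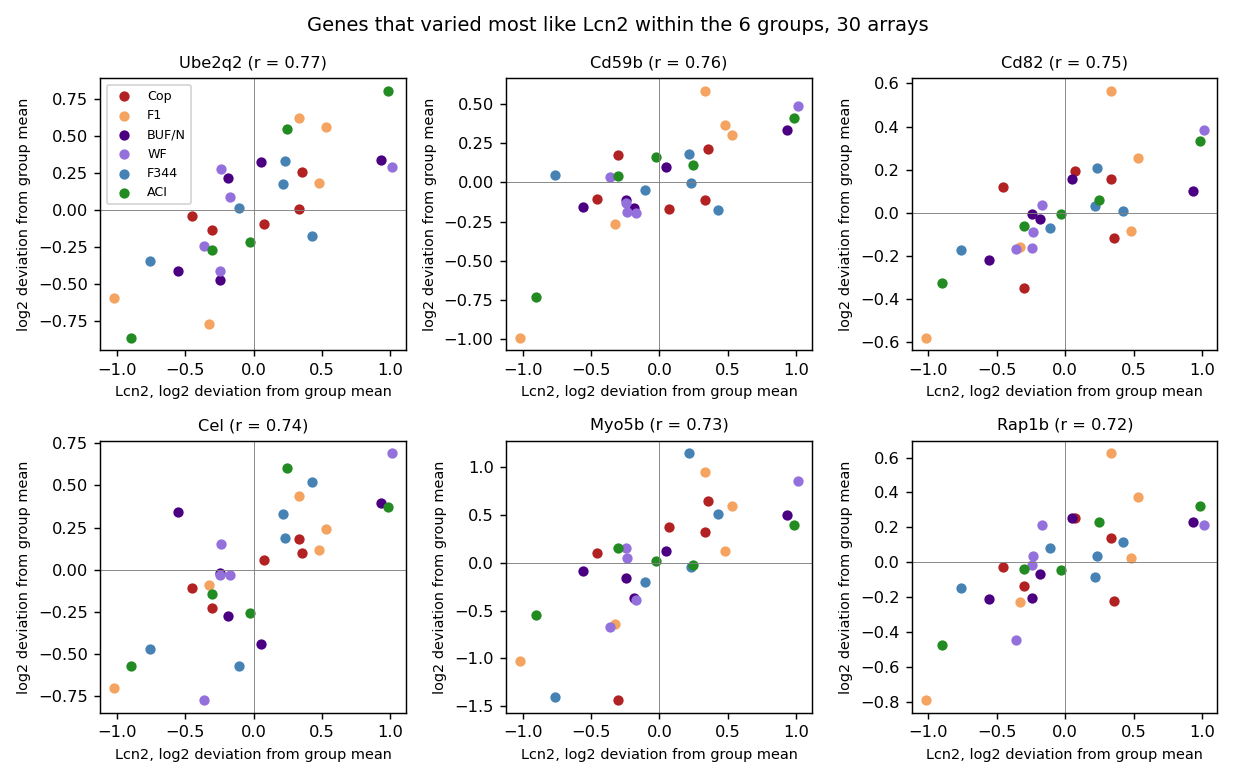
Log2 deviation from the group mean of 6 genes (vertical) against that of Lcn2 (horizontal), 30 arrays coloured by group. F1 4 and ACI 3 lie at the low left and WF 3, ACI 5 and BUF/N 2 at the right in each panel, with r from 0.72 to 0.77.

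Genes to either side of Lcn2 on chromosome 3 were read in the same 8 comparisons, and none was called higher in more than 1. The same held for most tested probe sets, of which 3386 were higher in 0 and 705 in 1, with Lcn2 left out. The 6 nearest genes with a tested probe set on each side were Cel, Sptan1, Kyat1, Aif1l, Golga2 and Dnm1 at lower coordinates and Dpm2, Hspa5, Rab14, Ndufa8, Ptgs1 and Pdcl at higher ones, in the order of the GRCr8 annotation. The closest were Dnm1, a dynamin, Golga2, a Golgi matrix protein, and Dpm2, a mannosyltransferase subunit, which are the 5th, 6th and 8th annotated genes away. The farthest on each side, Cel and Pdcl, lie 111 and 163 annotated genes away. Over all 12 genes and all 8 comparisons, the log2 changes ran from -1.41 to 0.86, against 4.50 to 5.23 for Lcn2.
In Cop against F344, Cop against ACI, WF against F344 and WF against ACI, 0 of the 12 passed, where 1.69% to 6.77% of all probe sets were called higher and 1.77% to 4.56% lower, so that few of any 12 would be called. In any of the 8, 2 were called higher (Cel in BUF/N against F344 and Rab14 in F1 against F344) and 4 lower (Hspa5, Ndufa8, Ptgs1 and Pdcl). Of the 5039 tested probe sets, with Lcn2 left out, 3386 were higher in none and 3375 lower in none. A call in at least 1 of the 8 was thus common. Their r with Lcn2 over the 30 arrays ran from -0.52 to 0.40. Sequence differences between the strains at this locus were not analysed here.

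**Figure D5:**
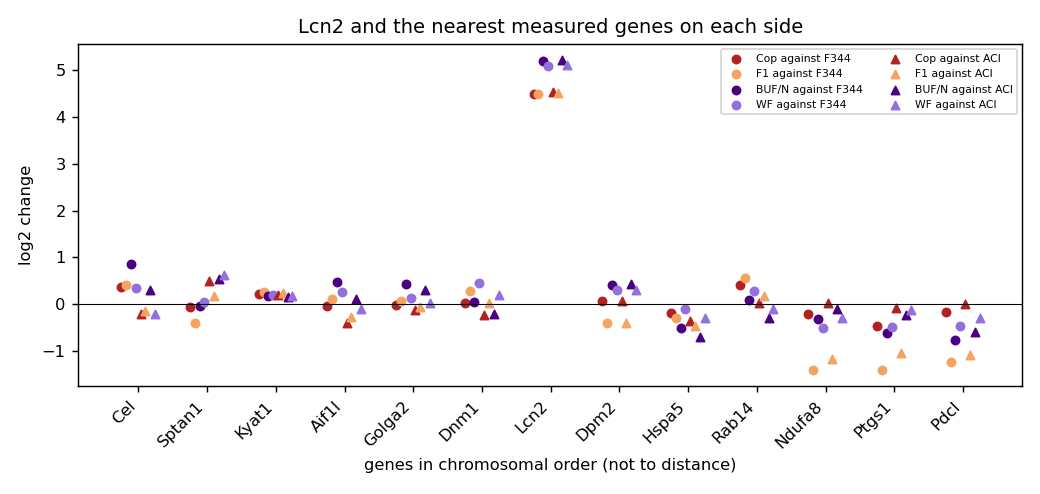
Log2 change (vertical) of Lcn2 and of the 6 nearest tested genes on each side, in chromosomal order and not to distance, with 1 point for each of 8 comparisons. Lcn2 lies at 4.50 to 5.23 and its 12 neighbours at -1.41 to 0.86.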

How the data were processed

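RNA of normal mammary gland from 30 single samples (6 groups of 5) and 2 pools was measured on 1 array each. The deposited table holds signal intensity on a linear scale for 8799 probe sets, which the authors made with Affymetrix Microarray Suite 5.0, per the labels. The number of arrays limits the precision. Gene names came from the platform annotation, updated through RefSeq: 7018 probe sets had 1 symbol, 308 several and 1473 none. Only probe sets with 1 symbol were named.

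Signals were floored at 18.3 (the 25th percentile of all values) and taken as log2. Those above 78.4 (the overall median) on at least 5 of 30 arrays were kept (5039, of 3053 named genes). limma 3.58.1 in R 4.3.3, with a variance trend, was fitted over all 30 single-sample arrays, with p-values adjusted (Benjamini-Hochberg) over all 5039 within each comparison at a threshold of 0.05, and was tested on simulated data. Likeness to Lcn2 was Pearson's r of floored log2 signals.

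The members, gene lists, comparisons and the rule for named genes were chosen with earlier results of these data known. By that rule the text may name Lcn2, the 12 most positive and 12 most negative correlates, 6 and 4 by deviations, genes called in all 8 comparisons, up to 4 (Cop against F344) and 2 (WF against ACI) members a list by adjusted p, a fixed set of Lcn2-related genes, and 6 neighbours on each side. Other names were chosen after their values were seen. Each gene of a list is represented by its probe set of highest mean signal. Other floors, filters, normalizations, weights and left-out arrays were tried.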

Additional observations from a re-analysis of the deposited data

Results flagged for a closer look

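On the linear signal, a single array stood far above the other 4 of its group in 2 groups. For normally spread values, chance puts an array this far out, at either the high or the low end, in about 1 in 20 groups. Both ends of all 6 groups were searched. The log2 signals, which draw in high values, were not used for this criterion. WF 3 read 4792 for Lcn2, and the other 4 WF arrays read 1852 to 2112. BUF/N 2 read 4890.6, and the other 4 BUF/N arrays read 1744 to 2655, a gap of 0.7105 of the group's range that only just passed Dixon's criterion. Both arrays are above all F344 and ACI arrays, as are the other 8 arrays of the 2 groups.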

How the results depend on the processing

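The Cop minus F344 difference of Lcn2 was 4.50 and became 3.75 when 50 was added to each signal in place of the floor, which shrinks the folds of low signals, and it was 4.31 to 4.61 with 1 array left out. The F1 position was 0.970 to 1.06 with 1 array left out. The 2 probe sets with r of 0.8 or beyond became 1 with arrays centred on their median, 1 with a filter of 15 arrays and 1 by Spearman's rho, and 1 to 4 with 1 array left out (4 without F1 1, BUF/N 2, BUF/N 5 or WF 1, and 1 without F344 1, F344 3, F344 5 or ACI 4). The 2 probe sets higher in all 8 became 1 with a filter of 15 arrays, and were 2 whichever array was left out. The 3 that were lower became 7 with a floor at the 40th percentile, 6 with the offset of 50, 6 with the replicate number as a block, 8 with array weights, and 0 to 6 with 1 array left out (0 without Cop 2). Same-numbered samples of different groups did not deviate together (75 pairs, median r -0.02, from -0.45 to 0.40). The median r of 300 pairs with different numbers was 0.007. No pairing by number was seen, but whether the numbers pair the samples cannot be told from this. The Lcn2-related genes called higher in Cop against F344 were 0 with any 1 array left out, and those called lower were 2 to 4, or 6 with array weights. In WF against ACI the 1 called higher became 2 with a floor at the 10th percentile, 2 with quantile normalization, 3 with median centring, 5 without F1 2, F1 3, ACI 2 and ACI 5, 0 with a filter of 15 arrays and 3 with array weights, and 1 to 2 with 1 array left out (2 without Cop 1, ACI 3, ACI 4 or ACI 5). The 3 called lower there became 1 with median centring and 1 with no filter, and 1 to 3 with 1 array left out (1 without ACI 1, ACI 2, WF 1, WF 3 or WF 5). Except for the offset, the cause of these changes was not tested. A second Lcn2 probe set was not run, as the table used holds 1, and the within-array percentile was not used, since it sets probe sets against each other. Signals near 18.3 limit what can be said of cytokines and granulocyte markers.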
